A study of Homo sapiens with 2 samples.

Results

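Interferon-stimulated genes are switched on in cells that interferon reaches, and 46 of them were followed here by name in drug-resistant ovarian cancer lines. They were taken as known targets of interferon signalling, and a gene entered through the probes that carry its name in the annotation of the array. Of the 46 names, 45 had a probe among the 30238 gene names on the array; CMPK2 had none. A2780 is an established human ovarian carcinoma cell line. A2780CBN was selected with rising doses of carboplatin, a platinum drug that crosslinks DNA, up to 22.2 uM. A2780CBNDXL was selected with carboplatin together with docetaxel, a taxane that stabilises microtubules; the labels give 8.02 uM for this combination, a figure that stands for its IC50, not its selection dose, in the account of the study. Each line was compared with its own control, A2780CC, which was parental cells cultured beside that line. RNA from 3 isolations was pooled to 1 sample per line and hybridised with the control RNA to 4 Agilent 2-colour arrays, forward on arrays 1 and 3 and with the dyes reversed on arrays 2 and 4. Arrays 1 and 2 lay on slide 1 and arrays 3 and 4 on slide 2. Each line was therefore 1 sample and each SD below covers labelling and hybridisation alone. The number of arrays, 4 per line, limits how precise a ratio is, and no test across samples was possible.

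Interferons are secreted signals of antiviral defence. Type I interferons act through a receptor whose kinases activate a complex that holds STAT2 and IRF9 and binds the interferon-stimulated response element, while interferon gamma acts through its own receptor on genes with a gamma-activated site. Tumour cells can express part of these genes without added interferon, and such expression has been described in cancer cells after DNA-damaging treatment.

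The labelled cell type was set against marker genes. KRT8 and KRT18, keratins of simple epithelia, and PAX8, a transcription factor of ovarian carcinoma, were well above background on all 4 arrays in each line and each control. EPCAM, an epithelial adhesion molecule, was so in both lines and in the A2780CBN control, and on 3 of 4 arrays in the A2780CBNDXL control. By the rule given below EPCAM was higher in both lines, at 2.07 (SD 0.30) and 1.67 (SD 0.24), and KRT18 in A2780CBN at 1.05 (SD 0.16). These calls were lost with the normexp background correction described below, at an offset of 50. EPCAM was then at 0.96 in A2780CBN and 0.84 in A2780CBNDXL, and KRT18 at 0.89 in A2780CBN. KRT19, a further keratin, passed on 3 and 4 arrays in A2780CBN and its control and on 3 and 2 in A2780CBNDXL and its control. For CDH1, KRT7, WT1 and MUC16, further epithelial and ovarian markers, no array passed background, and they were not detected here. PTPRC, the common leukocyte antigen, was not detected either, nor were CD3D and LYZ, although CD3E, CD14 and NKG7 were well above background on all 4 arrays in every channel. The summed scaled signal of the 8 leukocyte genes reported was 2140 in A2780CBN and 2252 in its control, and 3348 in A2780CBNDXL and 2381 in its control, and most of it came from CD79A, which had an outlier spot on 1 array of A2780CBN. Without CD79A it was 254 and 285, and 398 and 268. ITGAM was higher in A2780CBNDXL, and no other of the 8 was called in either line. With normexp at an offset of 50 ITGAM was at 0.58 there and not called. Of the 4 endothelial genes, 0 were well above background on all 4 arrays. The 6 fibroblast genes, mostly collagens and other matrix proteins and led by COL3A1 in signal, had a summed scaled signal of 44185 in A2780CBN and 17914 in its control, and of 49133 in A2780CBNDXL and 26406.5 in its control; without COL3A1 it was 1773 and 2028, and 8036 and 7496. By the same rule COL3A1, DCN, LUM and PDGFRB were higher in A2780CBN and COL1A2 lower. COL1A1, COL3A1, DCN and LUM were higher in A2780CBNDXL and COL1A2 lower. Over all genes measured 8.0% were higher and 4.55% lower in A2780CBN, and 7.70% and 9.20% in A2780CBNDXL. With normexp at an offset of 50 DCN at 0.74 and LUM at 0.15 were not called in A2780CBN, and the other fibroblast calls stayed. Against the other line's control, 2 of the 6 were higher and 1 lower in A2780CBN, and 4 and 1 in A2780CBNDXL. The part of these markers in the results was not tested. In such bulk RNA, fewer cells of a kind and less RNA per cell cannot be told apart.

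Against its own control, A2780CBN had a higher signal of most interferon-stimulated genes. A gene was called higher or lower when its mean log2 ratio of line over control was at least 1 in size, had the same sign on all 4 arrays, and came from a probe well above background in the same channel on all 4 arrays. By this rule 32 of the 37 interferon-stimulated genes measured in A2780CBN were higher and 0 were lower, where 8.0% of the 17951 genes measured were higher and 4.55% were lower. The median log2 ratio of all 45 genes was 2.09, or 1.71 with 6 genes placed at the lower bounds given below, beside a median of 0.0074 over all genes. In A2780CBNDXL the genes were split: 8 of 34 measured were higher and 7 lower, where 7.70% of 17116 genes were higher and 9.20% lower, and the median was 0.27 beside 0.071 over all genes.

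The filter on dim probes shaped part of these counts, since a gene can pass through its brighter channel alone. With the probe well above background in both channels on all 4 arrays, 24 of 29 genes were higher in A2780CBN, where 995 of all 16659 genes were, and 6 were higher and 7 lower of 32 in A2780CBNDXL, where 944 and 1018 of all 15611 were. With another background correction (normexp with an offset of 50, then loess) 22 were higher in A2780CBN, where 424 of all 17951 genes were, and 3 were higher and 7 lower in A2780CBNDXL, where 488 and 684 of all 17116 were. The calls so lost were those of STAT2, IFIH1, DDX58, OAS1, OAS2, RSAD2, SAMD9L, TRIM21, TRIM22 and IFI16 in A2780CBN and of OAS3, OASL, MX1, SAMD9L and IFI27 in A2780CBNDXL. With an offset of 1 in its place, 30 were higher in A2780CBN (771 of all genes), and 7 higher and 7 lower in A2780CBNDXL (800 and 1121). The median of the genes in A2780CBN was 0.97 at an offset of 50 and 1.30 at an offset of 1, and in A2780CBNDXL 0.026 and 0.066. Array 1 of A2780CBNDXL had a variation of 19.6% and 20.0% among its spike-in controls in green and red, where the other arrays had 3.56% to 4.87%; without it 10 of 37 genes measured were higher and 7 lower, where 1426 and 1763 of all 18437 were. In A2780CBN, 5 genes were not measured because they were dim and 3 because a spot was marked as an outlier, and in A2780CBNDXL 9 and 2 were not.

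Read across the lines, 7 genes were higher in both: OAS3, OASL, MX1, SAMD9, SAMD9L, IFI16 and IFI27. Opposite calls, higher in A2780CBN but lower in A2780CBNDXL, fell on 6 genes: IRF1, IFIT1, IFIT2, IFIT3, IFIT5 and GBP1. With normexp at an offset of 50 the opposite calls all stayed, but of the 7 genes SAMD9 alone was still called in both lines; at an offset of 1 all but IFI27 were. A further 19 were higher in A2780CBN and not called in A2780CBNDXL, where 5 of them were not measured. BST2 was higher and IFITM1 lower in A2780CBNDXL without a call in A2780CBN, where IFITM1 was not measured, and 11 were called in neither line, 6 of which were measured in neither. Such joint calls were not counted over all genes, so these counts have no share of all genes beside them. By line alone, 8.0% of all genes measured were higher in A2780CBN, and 7.70% higher and 9.20% lower in A2780CBNDXL. The difference between the lines was not tested. All signs follow the dyes given for the forward arrays; over all genes the 2 channels so labelled as controls differed by the same rule in 4.68% of 16871 genes measured, and the 2 labelled as resistant lines in 16.5% of 17083 (6.63% higher and 9.82% lower in A2780CBNDXL).

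**Figure D1:**
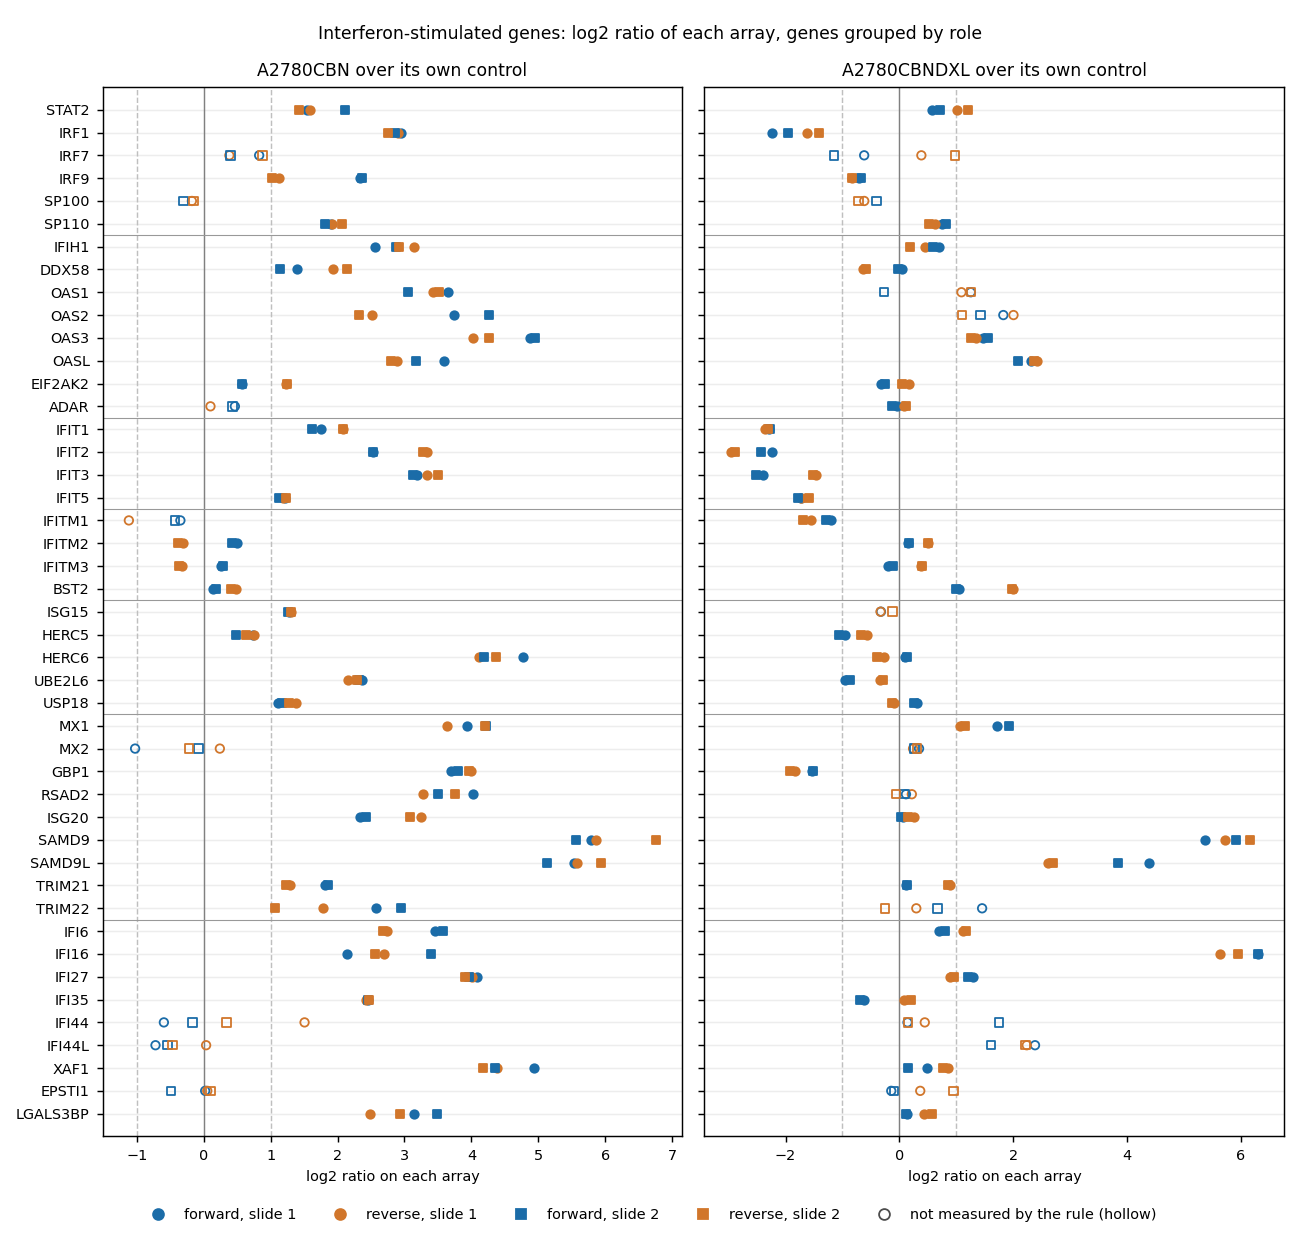
Log2 ratio of line over its own control on each of the 4 arrays (x axis) for the 45 interferon-stimulated genes with a probe (y axis, grouped by role), A2780CBN left and A2780CBNDXL right. Circles are slide 1, squares slide 2, blue forward and orange reverse labelling, hollow marks genes that were not measured by the rule, and dashed lines mark a log2 ratio of 1 in size; the 4 IFIT genes lie right of these lines in A2780CBN and left of them in A2780CBNDXL.

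**Figure D2:**
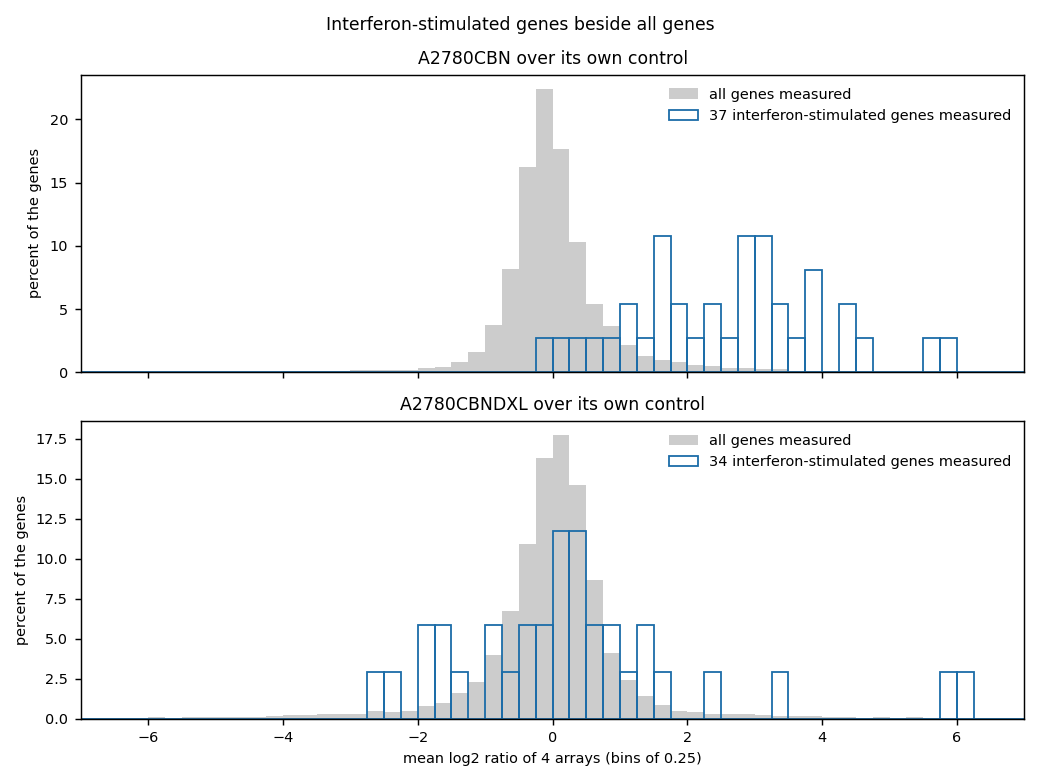
Percent of genes (y axis) in bins of mean log2 ratio over the own control (x axis), for all genes measured (grey) and the interferon-stimulated genes measured (blue outline). By measured mean the 37 interferon-stimulated genes in A2780CBN run from -0.038 to 5.99, and in A2780CBNDXL the 34 run from -2.63 to 6.05.

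Among the transcription factors, all 4 that were measured in A2780CBN were higher there, STAT2 not so with normexp at an offset of 50, where it was at 0.69. The share of all genes measured that were higher in A2780CBN was 8.0%. STAT2 is a subunit of the complex that type I interferon activates, and its log2 ratio on the 4 A2780CBN arrays was 1.55, 1.59, 2.12 and 1.43, with a mean of 1.67 (SD 0.31); in A2780CBNDXL it was 0.58, 1.01, 0.71 and 1.20, with a mean of 0.88 (SD 0.28), short of the limit. IRF9 gives that complex its DNA contact, and its ratios in A2780CBN were 2.34, 1.12, 2.37 and 1.02, with a mean of 1.71 (SD 0.74), higher on the forward than on the reverse arrays. In A2780CBNDXL the IRF9 ratios were -0.71, -0.83, -0.68 and -0.83, with a mean of -0.76 (SD 0.077). IRF9 thus lay above its control on every A2780CBN array and below it on every A2780CBNDXL array, without being called in the latter.

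IRF1, a transcription factor induced early by interferon gamma, was called in opposite directions. Its log2 ratios were 2.94, 2.90, 2.86 and 2.76, with a mean of 2.86 (SD 0.078), in A2780CBN. They were -2.24, -1.62, -1.95 and -1.42, with a mean of -1.81 (SD 0.36), in A2780CBNDXL. As opposite calls require, no IRF1 value of the lines overlapped. The scaled log2 signal of IRF1 was 11.38 in A2780CBN and 8.52 in its control, and 7.55 in A2780CBNDXL and 9.36 in its control, so the lines stood on either side of the controls. SP110, a nuclear body protein, was higher in A2780CBN at 1.92 (SD 0.10) and stood at 0.68 (SD 0.13) in A2780CBNDXL.

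IRF7, which amplifies the production of type I interferon, was too dim to be measured in either line. Its ratios, 0.83, 0.38, 0.40 and 0.88 in A2780CBN and -0.62, 0.39, -1.15 and 0.97 in A2780CBNDXL, are therefore those of a dim probe. SP100, a nuclear body protein as well, had 5 probes that disagreed. Its brightest probe had an outlier spot in each line and means of -0.23 and -0.53, while another of its probes was called higher in A2780CBN at 4.42 (SD 0.47) and in A2780CBNDXL at 2.00 (SD 0.42).

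To show what sequence lies at the genes on which these results turn, 160 bases before the start of 8 genes are printed from RefSeq promoter records of build GRCh38.p14, in the direction of transcription and chosen after the values were seen. Capitals mark every match to GAAANNGAAA, the core of the interferon-stimulated response element, or to TTCNNNGAA, the core of the gamma-activated site, where N is any base, both strands were read and overlapping matches run together. IFIT1 (chr10:89392463-89392622 on the plus strand), IFIT3 (chr10:89327837-89327996 on the plus strand), IFIT5 (chr10:89414408-89414567 on the plus strand), GBP1 (chr1:89065209-89065368 on the minus strand) and IRF1 (chr5:132490774-132490933 on the minus strand) stand for the genes with opposite calls. OAS3 (chr12:112938314-112938473 on the plus strand), SAMD9 (chr7:93117980-93118139 on the minus strand) and IFI27 (chr14:94110576-94110735 on the plus strand) stand for those higher in both lines.
IFIT1: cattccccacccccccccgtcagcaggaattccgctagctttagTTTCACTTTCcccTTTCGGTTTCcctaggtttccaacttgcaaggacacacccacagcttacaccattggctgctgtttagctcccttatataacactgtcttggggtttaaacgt
IFIT3: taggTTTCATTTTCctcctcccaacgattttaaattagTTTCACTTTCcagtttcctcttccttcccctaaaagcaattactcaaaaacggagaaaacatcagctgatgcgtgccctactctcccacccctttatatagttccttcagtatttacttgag
IFIT5: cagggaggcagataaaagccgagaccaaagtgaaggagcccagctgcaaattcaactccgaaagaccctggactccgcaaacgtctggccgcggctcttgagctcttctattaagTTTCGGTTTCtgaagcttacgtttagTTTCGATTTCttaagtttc
GBP1: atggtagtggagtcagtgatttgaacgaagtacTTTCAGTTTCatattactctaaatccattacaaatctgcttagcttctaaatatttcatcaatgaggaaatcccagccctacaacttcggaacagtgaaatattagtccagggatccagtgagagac
IRF1: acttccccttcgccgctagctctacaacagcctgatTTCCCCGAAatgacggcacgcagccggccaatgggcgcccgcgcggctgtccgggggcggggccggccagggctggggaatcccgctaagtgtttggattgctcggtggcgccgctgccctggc
OAS3: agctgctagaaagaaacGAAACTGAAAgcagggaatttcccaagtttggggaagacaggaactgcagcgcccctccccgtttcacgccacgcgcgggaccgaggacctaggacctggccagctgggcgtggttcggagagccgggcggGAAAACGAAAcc
SAMD9: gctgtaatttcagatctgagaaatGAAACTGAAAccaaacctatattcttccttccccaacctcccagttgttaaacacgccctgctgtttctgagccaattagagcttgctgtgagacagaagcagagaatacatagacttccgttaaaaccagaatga
IFI27: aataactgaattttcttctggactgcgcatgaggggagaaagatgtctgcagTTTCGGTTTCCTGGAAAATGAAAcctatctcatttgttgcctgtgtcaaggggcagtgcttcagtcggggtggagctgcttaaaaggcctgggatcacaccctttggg

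In IFIT1 the response element core began 116 and 103 bases before the start, and in IFIT5 at 45 and 19 bases. The IFIT3 stretch held it at 156 and 122 bases, the OAS3 stretch at 143 and 12 bases, GBP1 at 127 bases and SAMD9 at 136 bases. IRF1 held no response element core in the 250 bases searched and a gamma-activated core 124 bases before its start. IFI27 held response element cores at 108 and 95 bases with a gamma-activated core at 101 bases that overlaps them. Of the genes with a promoter matched, the response element core was before 4 of 5 with opposite calls (not IRF1), 4 of 6 higher in both lines (not SAMD9L or IFI16), 6 of 16 higher in A2780CBN and not called in A2780CBNDXL, and 5 of 8 called in neither line. Promoters were matched for 38 of the 46 genes, and within 250 bases 21 of them (55.3%) held GAAANNGAAA, where 3.71% of 27305 genes did; TTCNNNGAA was in 10 (26.3%), where 8.09% of all genes held it. IRF7, OAS2, OASL, IFIT2, IFITM2, USP18, MX2 and TRIM22 were not matched. A match describes the letters and shows no binding.

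The sensors and enzymes of double-stranded RNA were higher in A2780CBN in 6 of 7 measured genes, where 8.0% of all genes measured were. OAS1 and OAS2 entered this count through the channel of the line alone. OAS3, which makes the oligoadenylate messenger that activates RNase L, had log2 ratios of 4.88, 4.02, 4.94 and 4.27, with a mean of 4.53 (SD 0.46), in A2780CBN. In A2780CBNDXL its ratios were 1.47, 1.36, 1.56 and 1.25, with a mean of 1.41 (SD 0.13). OAS3 was above its control on all 8 arrays, as a call in both lines requires, with every A2780CBN value above every A2780CBNDXL value. OASL, a relative of the OAS enzymes that enhances sensing by RIG-I, had ratios of 2.31, 2.42, 2.08 and 2.36, with a mean of 2.29 (SD 0.15), in A2780CBNDXL, and a mean of 3.11 (SD 0.35) in A2780CBN. With normexp at an offset of 50 OAS3 was at 1.90 and OASL at 1.01 in A2780CBN, both called. In A2780CBNDXL they were at 0.65 and 0.80, not called.

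OAS1 and OAS2, enzymes of the same family, were well above background on all 4 arrays in A2780CBN and on none in its control, so a lower bound stands for the ratio. OAS1 was at least 2.47-fold and OAS2 at least 5.49-fold higher in A2780CBN, from the mean scaled signal of the line over the control's, where each dim array was taken at the lowest signal among probes well above background, or at the probe's own signal if that was higher. The measured log2 means were 3.41 and 3.21. The bounds here and below hold for the processed signals: with normexp, OAS1 and OAS2 were at 0.22 and 0.47 with an offset of 50, neither called, and at 0.84 and 1.34 with an offset of 1, where OAS2 was called. In A2780CBNDXL neither passed the filter. IFIH1, the sensor MDA5 of long RNA duplexes, was higher in A2780CBN at 2.87 (SD 0.24) and stood at 0.49 (SD 0.22) in A2780CBNDXL. DDX58, the sensor RIG-I, was higher in A2780CBN at 1.65 (SD 0.46) and had -0.31 (SD 0.36) in A2780CBNDXL. EIF2AK2, the kinase PKR that halts translation, had 0.90 (SD 0.39) and -0.087 (SD 0.24) and was called in neither line. ADAR, which edits adenosine in RNA duplexes, was not called in A2780CBNDXL, at 0.0074 (SD 0.12), and was not measured in A2780CBN because of an outlier spot.

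Proteins of the IFIT family bind viral RNA and hinder its translation, and all 4 IFIT genes of the set were called in opposite directions. Their probes lie together on chromosome 10 of build NCBI36, from base 91058377 to base 91168382. IFIT1 had log2 ratios of 1.75, 2.08, 1.63 and 2.08, with a mean of 1.88 (SD 0.23), in A2780CBN, and of -2.29, -2.35, -2.27 and -2.31, with a mean of -2.31 (SD 0.037), in A2780CBNDXL. For IFIT2 the ratios were 2.53, 3.34, 2.53 and 3.28, with a mean of 2.92 (SD 0.45), in A2780CBN. In A2780CBNDXL the IFIT2 ratios were -2.24, -2.96, -2.43 and -2.89, with a mean of -2.63 (SD 0.35), which made it the lowest of the 34 genes measured there. Every IFIT1 and IFIT2 value in A2780CBN was above 0 and every value in A2780CBNDXL below it, as opposite calls require.

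IFIT3 had ratios of 3.18, 3.33, 3.13 and 3.49, with a mean of 3.28 (SD 0.16), in A2780CBN, and of -2.40, -1.47, -2.52 and -1.52, with a mean of -1.98 (SD 0.56), in A2780CBNDXL. IFIT5 moved less in A2780CBN, with 1.21, 1.19, 1.12 and 1.23, with a mean of 1.19 (SD 0.05). In A2780CBNDXL its ratios were -1.72, -1.72, -1.79 and -1.60, with a mean of -1.71 (SD 0.08). The further probes of IFIT2 and IFIT5 gave the same calls as the brightest. The sign of the 4 IFIT genes in each line was also the same under the other background corrections.

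On the scaled log2 signal, IFIT2 was at 8.84 in the A2780CBN control, 11.76 in A2780CBN, 10.56 in the A2780CBNDXL control and 7.93 in A2780CBNDXL. IFIT1 was at 13.03, 14.91, 14.65 and 12.34 in the same order. For both genes the control of A2780CBNDXL stood well above the control of A2780CBN, a point taken up below with the comparison of the controls.

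**Figure D3:**
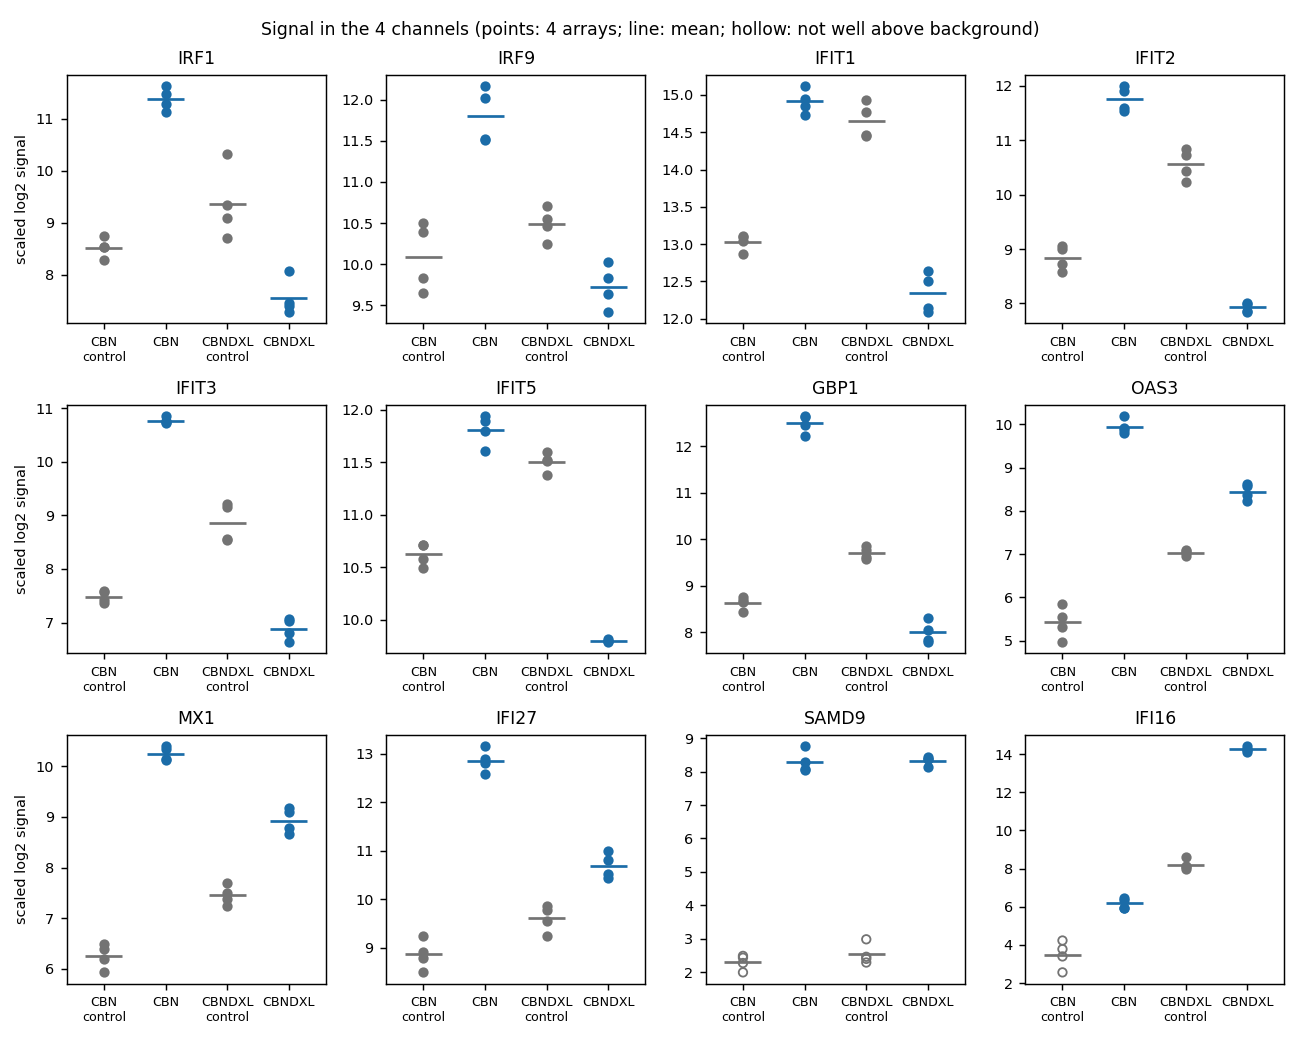
Scaled log2 signal (y axis, its own range in each panel) of 12 genes in the controls (grey) and the resistant lines (blue); points are the 4 arrays, lines their mean, hollow points are not well above background. The 4 IFIT genes, IRF1 and GBP1 are highest in A2780CBN and lowest in A2780CBNDXL, with both controls between.

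IFITM1, IFITM2 and IFITM3 sit in membranes and hinder the entry of viruses, and none of them was called in A2780CBN. IFITM1 was lower in A2780CBNDXL, at -1.44 (SD 0.22), and had an outlier spot in A2780CBN. IFITM2 had 0.058 (SD 0.47) and 0.33 (SD 0.20), and IFITM3 -0.038 (SD 0.36) and 0.11 (SD 0.32), in A2780CBN and A2780CBNDXL; the probes of these closely related genes share at most 17 bases in a row. BST2, or tetherin, holds budding virus at the cell surface. Its log2 ratios in A2780CBNDXL were 1.06, 1.99, 1.00 and 1.98, with a mean of 1.51 (SD 0.55), higher on the reverse than on the forward arrays. In A2780CBN, BST2 stood at 0.30 (SD 0.17) and was not called. A dimmer BST2 probe had the opposite sign, and with the mean over its probes BST2 in A2780CBNDXL was at 0.52, below the limit.

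ISG15 is a ubiquitin-like protein that interferon induces, and the genes grouped with it act in its attachment or removal or are related to those that do. ISG15 itself had log2 ratios of 1.28, 1.31, 1.25 and 1.31, with a mean of 1.29 (SD 0.028), in A2780CBN, nearly the same on all 4 arrays; in A2780CBNDXL a spot was marked as an outlier. USP18, the protease that removes ISG15, had 1.11, 1.38, 1.17 and 1.28, with a mean of 1.24 (SD 0.12), in A2780CBN and 0.088 (SD 0.23) in A2780CBNDXL. These were among the smaller changes called in A2780CBN.

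HERC6, a relative of the ISG15 ligase HERC5, had ratios of 4.77, 4.12, 4.19 and 4.36, with a mean of 4.36 (SD 0.29), in A2780CBN. In A2780CBNDXL HERC6 stood at -0.11 (SD 0.27), so a large change in the former faced a mean near 0 in the latter. The size in A2780CBN depended on the background correction: with normexp at an offset of 50 it was 1.59, still called. UBE2L6, the conjugating enzyme for ISG15, was higher in A2780CBN at 2.28 (SD 0.093) and had -0.61 (SD 0.35) in A2780CBNDXL. HERC5, the main human ligase for ISG15, was called in neither line, with 0.65 (SD 0.12) and -0.81 (SD 0.23).

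All 8 measured genes of the antiviral GTPases and related effectors were higher in A2780CBN, and of the 6 measured in A2780CBNDXL 3 were higher and 1 lower. RSAD2, SAMD9, SAMD9L and TRIM22 passed the filter in A2780CBN through the channel of the line alone. So did SAMD9 and SAMD9L in A2780CBNDXL, among the 3 higher there. The filter thus set part of both counts. The shares of all genes measured were 8.0% higher in A2780CBN, and 7.70% higher and 9.20% lower in A2780CBNDXL. MX1, a dynamin-like GTPase that traps viral nucleoproteins, had log2 ratios of 3.94, 3.63, 4.22 and 4.21, with a mean of 4.00 (SD 0.28), in A2780CBN. In A2780CBNDXL they were 1.72, 1.07, 1.92 and 1.15, with a mean of 1.46 (SD 0.42). MX1 was therefore higher on all 8 arrays, as a call in both lines requires. GBP1, a guanylate-binding protein and a classic target of interferon gamma, had 3.70, 3.99, 3.80 and 3.96, with a mean of 3.86 (SD 0.14), in A2780CBN and -1.53, -1.83, -1.51 and -1.93, with a mean of -1.70 (SD 0.21), in A2780CBNDXL, opposite calls that its further probe gave as well.

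SAMD9 and SAMD9L, neighbours on chromosome 7 that restrict poxviruses, were called higher in both lines. In A2780CBN each is known by a lower bound alone, so neither can be ranked among the genes there. SAMD9 ratios were 5.79, 5.86, 5.56 and 6.76, with a mean of 5.99 (SD 0.53), in A2780CBN, and 5.38, 5.73, 5.92 and 6.16, with a mean of 5.79 (SD 0.33), in A2780CBNDXL. Neither control was well above background for SAMD9 on any array, so the measured ratios are not sizes: the bounds were at least 13.8-fold in A2780CBN and at least 16.6-fold in A2780CBNDXL. SAMD9L ratios were 5.54, 5.57, 5.13 and 5.94, with a mean of 5.55 (SD 0.33), in A2780CBN, where its bound was at least 13.1-fold. In A2780CBNDXL they were 4.38, 2.62, 3.85 and 2.70, with a mean of 3.39 (SD 0.87), and its control passed background on 1 of 4 arrays. With normexp at an offset of 50 SAMD9 stood at 1.15 and 1.23 in A2780CBN and A2780CBNDXL, and SAMD9L at 0.90 and 0.68, not called. The 3 further SAMD9 probes did not pass the filter.

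RSAD2, or viperin, which blocks viral replication, was well above background in A2780CBN alone, at least 3.07-fold above its control (measured mean 3.64), and its other probe was dim. With normexp RSAD2 was at 0.32 with an offset of 50, not called, and at 1.15 with an offset of 1. ISG20, an exonuclease, was higher in A2780CBN at 2.77 (SD 0.46) and had 0.12 (SD 0.10) in A2780CBNDXL. TRIM21, an antibody receptor in the cytosol with ubiquitin ligase activity, had ratios of 1.82, 1.29, 1.86 and 1.23, with a mean of 1.55 (SD 0.34), in A2780CBN. TRIM22, a ligase that restricts retroviruses, was higher in A2780CBN at 2.09 (SD 0.83), a wide spread, and its control passed background on 1 of 4 arrays; normexp with either offset did not call it. MX2, a relative of MX1 that restricts HIV, was too dim to be measured in either line.

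The remaining inducible genes were higher in A2780CBN in all 6 that were measured, where 8.0% of all genes measured were. IFI16 and XAF1 entered this count through the channel of the line alone. IFI27, a small mitochondrial protein, had log2 ratios of 4.08, 4.01, 3.96 and 3.90, with a mean of 3.99 (SD 0.074), in A2780CBN, and of 1.29, 0.89, 1.20 and 0.96, with a mean of 1.08 (SD 0.19), in A2780CBNDXL. Both probes of IFI27 gave these calls. XAF1, a pro-apoptotic partner of XIAP, had 4.93, 4.38, 4.36 and 4.17, with a mean of 4.46 (SD 0.33), in A2780CBN, with its control well above background on 2 of 4 arrays. In A2780CBNDXL XAF1 stood at 0.56 (SD 0.31). With normexp at an offset of 50 XAF1 was at 1.43 in A2780CBN, still called.

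IFI16, a nuclear sensor of DNA, had ratios of 6.30, 5.64, 6.30 and 5.95, with a mean of 6.05 (SD 0.32), in A2780CBNDXL, where it was 5.30 with normexp at an offset of 50. Its mean from the processed signals was the largest of the 34 genes measured, though SAMD9, known there by a bound alone, cannot be ranked beside it. In A2780CBN it was at least 3.19-fold higher than a control that was not well above background, with a measured mean of 2.70; with normexp it was at 0.30 with an offset of 50, not called, and at 1.08 with an offset of 1. IFI6, which protects cells from apoptosis, was higher in A2780CBN at 3.11 (SD 0.47) and had 0.95 (SD 0.23) in A2780CBNDXL. IFI35, a partner of NMI, was higher in A2780CBN at 2.45 (SD 0.018), with -0.26 (SD 0.46) in A2780CBNDXL. LGALS3BP, a secreted glycoprotein that binds galectins, was higher in A2780CBN at 3.01 (SD 0.42) and had 0.31 (SD 0.23) in A2780CBNDXL. IFI44, IFI44L and EPSTI1 were not measured in either line; IFI44L was well above background on 3 of 4 arrays in A2780CBNDXL and on 0 in its control.

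Each line was then set against the control that had been cultured beside the other line, on matched arrays of the same slide and labelling direction, to see how far a value rested on the control in use. These comparisons share their line channels with those above, so they are no independent evidence. For A2780CBN, 26 of 36 genes measured were higher and 2 lower, where 7.46% of 17125 genes were higher and 6.07% lower, and the median was 1.20 beside 0.010 over all genes. For A2780CBNDXL, 16 of 32 were higher and 0 lower, where 8.70% of 17044 genes were higher and 8.84% lower, and the median was 0.86 beside 0.034. OAS1, OAS2, RSAD2, SAMD9, SAMD9L and TRIM22 in A2780CBN passed the filter through the channel of the line alone. So did SAMD9, SAMD9L, IFI16 and XAF1 in A2780CBNDXL. The filter thus set part of both counts, and a filter on both channels was not run for these comparisons. Of the 32 higher calls in A2780CBN, 26 were thus also made with the other control, and of the 7 lower calls in A2780CBNDXL 0 were.

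The 26 genes higher in A2780CBN against both controls included STAT2, IRF1, IRF9, OAS3, IFIT2, IFIT3, MX1, GBP1, SAMD9 and IFI27. IRF1 was at 2.02 (SD 0.69) against the other control, IFIT2 at 1.20 (SD 0.14) and IFIT3 at 1.91 (SD 0.41). GBP1 was at 2.79 (SD 0.19) and MX1 at 2.79 (SD 0.25). IFIT1 and IFIT5 were no longer called, at 0.26 (SD 0.38) and 0.31 (SD 0.23), nor were DDX58 at 0.16 (SD 0.14) and TRIM21 at 0.90 (SD 0.41); ISG15 had an outlier spot. BST2 and IFI16 were lower in A2780CBN than in the other control, BST2 at -1.21 (SD 0.77) and IFI16 at -2.01 (SD 0.28). IFI16 was the gene whose call in A2780CBN turned over with the control.

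In A2780CBNDXL the 8 genes higher against the own control were also higher against the other. OAS3 was at 3.03 (SD 0.53), OASL at 2.86 (SD 0.34), MX1 at 2.67 (SD 0.41), IFI27 at 1.83 (SD 0.26) and BST2 at 3.02 (SD 0.21). SAMD9 was at least 14.1-fold, SAMD9L at least 10.9-fold and IFI16 at least 852-fold above a control that was not well above background. STAT2, IFIH1, DDX58, HERC6, ISG20, TRIM21, IFI6 and XAF1 were higher against the other control without being called against the own. The genes called lower against the own control stood at -0.69 for IFIT1, -0.91 for IFIT2, -0.60 for IFIT3, -0.83 for IFIT5, -0.96 for IRF1 and -0.63 for GBP1, below 0 and short of the limit. IFITM1, at 0.17, had an outlier spot on the other control's arrays. OAS3, OASL, MX1, SAMD9, SAMD9L and IFI27 were the 6 genes higher in both lines against both controls. Against the own controls, normexp with an offset of 50 kept the A2780CBN calls of all of these but SAMD9L and the A2780CBNDXL call of SAMD9 alone, with IFI27 at 0.85 there.

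**Figure D4:**
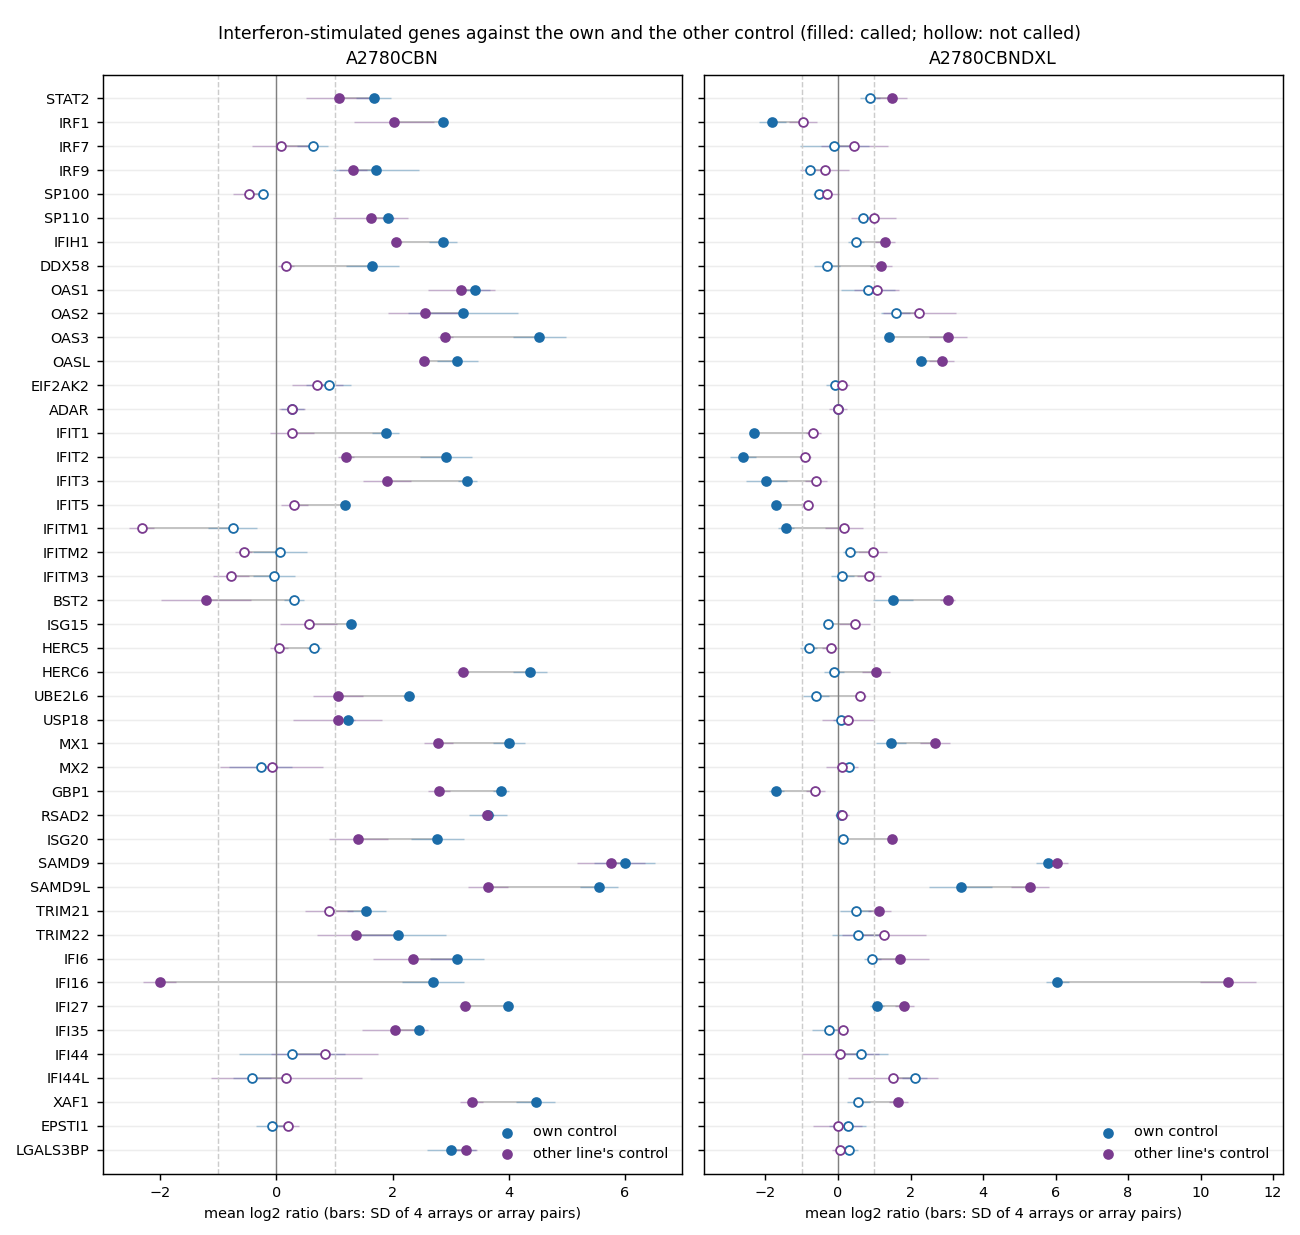
Mean log2 ratio (x axis) of each interferon-stimulated gene (y axis) over the line's own control (blue) and the other line's control (purple), A2780CBN left and A2780CBNDXL right; bars are the SD of 4 arrays or array pairs, filled points were called and hollow ones were not. IFI16 in A2780CBN runs from 2.70 against its own control to -2.01 against the other, and the IFIT genes in A2780CBNDXL lie nearer 0 against the other control.

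The controls were also compared with each other, a comparison added after the values had been seen. In the A2780CBNDXL control 13 of 30 genes measured were higher than in the A2780CBN control and 0 were lower, where 3.33% of 16871 genes were higher and 1.35% lower; the median was 0.73 beside -0.0077 over all genes. IFIT1 was at 1.62 (SD 0.18), IFIT2 at 1.72 (SD 0.50) and IFIT3 at 1.38 (SD 0.27). OAS3 was at 1.62 (SD 0.41), DDX58 at 1.49 (SD 0.59), BST2 at 1.52 (SD 0.61) and ISG20 at 1.36 (SD 0.064). UBE2L6, MX1, HERC6, XAF1 and GBP1 lay between 1.07 and 1.23. IFI16 was at least 12.9-fold higher. Both IFI16 and XAF1 entered this count through the channel of the A2780CBNDXL control alone. The 2 control channels thus differed in the genes called. They were never on the same array, so culture, RNA and array cannot be told apart here. Of 14 cell type markers measured, 3 were also higher in the A2780CBNDXL control and 1 was lower. COL1A2 was at 2.04 (SD 0.23), DCN at 2.84 (SD 0.64) and LUM at least 3.76-fold higher, while KRT19 was lower at -1.06 (SD 0.68). The part of these markers in the difference was not tested. Which of line and control moved cannot be told apart from a ratio alone.

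The other genes of the pathway were counted in fixed lists. Over all genes measured, 8.0% were higher and 4.55% lower in A2780CBN, and 7.70% higher and 9.20% lower in A2780CBNDXL. Of 16 interferon genes with a probe, 3 were measured in A2780CBN and 2 in A2780CBNDXL, and IFNG, which encodes interferon gamma, was the 1 called in each. IFNG was at least 10.5-fold higher in A2780CBN than in a control that was not well above background. In A2780CBNDXL its log2 ratios were 6.09, 5.36, 6.36 and 5.65, with a mean of 5.87 (SD 0.44). With normexp at an offset of 50 IFNG was not called in A2780CBN, at 0.81, and was called in A2780CBNDXL, at 3.63. The genes of type I and III interferons were not called in either line.

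All 10 receptor and signalling genes reported were measured, and 3 were higher in A2780CBN, while 2 were lower in A2780CBNDXL. IL28RA, a receptor chain for type III interferon, was higher in A2780CBN at 1.77 (SD 0.15) and lower in A2780CBNDXL at -2.04 (SD 0.35). STAT3, a STAT of cytokine signals, and the kinase JAK1 were higher in A2780CBN at 1.61 (SD 0.22) and 1.11 (SD 0.29), and IFNGR1, the ligand-binding chain of the interferon gamma receptor, was lower in A2780CBNDXL at -1.31 (SD 0.70). Under normexp (offset 50) STAT3 alone was still called; IL28RA was at 0.84 and -0.60, JAK1 at 0.69 and IFNGR1 at -0.84.

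Of the genes for sensing and induction, 3 of 10 measured were higher in A2780CBN, and 3 of 9 were higher and 1 lower in A2780CBNDXL. Among all genes measured 8.0% were higher in A2780CBN, and 7.70% were higher and 9.20% lower in A2780CBNDXL. The 1 lower of 9 lies near that share. TLR3, an endosomal receptor for RNA duplexes, was at 3.67 (SD 0.10) in A2780CBN and -2.31 (SD 0.53) in A2780CBNDXL, with opposite calls; like IL28RA, it passed background on 3 of 4 arrays in A2780CBNDXL. DHX58, a helicase related to RIG-I, was higher in both lines at 4.21 (SD 0.59) and 1.39 (SD 0.044). IRF5, a transcription factor, was higher in A2780CBN at 2.55 (SD 0.43), where its control passed background on 1 of 4 arrays, and the adaptor MAVS in A2780CBNDXL at 1.06 (SD 0.34). AIM2, a DNA sensor, was at least 5.72-fold higher in A2780CBNDXL than in a control that was not well above background. Among 9 inhibitors measured, 0 were called in A2780CBN; in A2780CBNDXL SOCS3, a feedback inhibitor of JAK kinases, was lower at -4.35 (SD 0.20), and of the phosphatases PTPN11 was lower at -1.19 (SD 0.39) and PTPN6 higher at 1.40 (SD 0.15). By normexp with an offset of 50, TLR3 and DHX58 in A2780CBN and SOCS3 and PTPN11 in A2780CBNDXL were still called, and the other calls of this paragraph were not: IRF5 was at 0.43 in A2780CBN, and in A2780CBNDXL TLR3 was at -0.76, DHX58 at 0.91, MAVS at 0.85, AIM2 at 0.60 and PTPN6 at 0.72.

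A list of 42 further interferon-induced genes was counted in the same way. In A2780CBN 22 of 37 measured were higher and 0 lower, with a median of 1.02 over the 41 with a probe, and in A2780CBNDXL 4 of 36 were higher and 10 lower, with a median of 0.058. The shares over all genes measured were 8.0% higher and 4.55% lower in A2780CBN, and 7.70% higher and 9.20% lower in A2780CBNDXL. The counts with normexp at an offset of 50 were 12 higher and 0 lower in A2780CBN, and 0 higher and 3 lower in A2780CBNDXL; at an offset of 1 they were 18 and 0, and 2 and 8. Over all genes normexp at an offset of 50 called 424 and 180 of 17951 in A2780CBN, and 488 and 684 of 17116 in A2780CBNDXL. At an offset of 1 it called 771 and 323, and 800 and 1121. The 5 highest by measured mean in A2780CBN were GBP5 at 4.11 (SD 0.38), TAP1 at 3.79 (SD 0.22), PSMB9 at 3.53 (SD 0.077), and RTP4 and GBP2, whose place rests on controls not well above background on any array and whose bounds were at least 4.94-fold and at least 4.55-fold. The smallest of the 22 by measured mean were PLSCR1 at 1.01 (SD 0.22), PSMB10 at 1.02 (SD 0.27), APOL1 at 1.18 (SD 0.48), PHF11 at 1.71 (SD 0.36) and TNFSF10, at least 1.88-fold above a control that was not well above background. In A2780CBNDXL TNFSF10, the death ligand TRAIL, was at 3.00 (SD 0.37), with its control above background on 3 of 4 arrays, and GBP5 at 2.07 (SD 0.23). PSMB8 and RTP4 were higher there as well, at 1.19 (SD 0.31) and 1.1 (SD 0.82), the RTP4 control having passed background on 1 of 4 arrays. The lowest by measured mean in A2780CBNDXL were LAMP3, at least 3.46-fold below its control, TAP1 at -2.56 (SD 0.19), CXCL11 at -2.48 (SD 0.12), PSMB9 at -1.96 (SD 0.075) and APOL6 at -1.80 (SD 0.16); the line passed background on 2 of 4 arrays for CXCL11 and on 3 for APOL6. TAP1, the peptide transporter of antigen presentation, and PSMB9, an immunoproteasome subunit, were thus called in opposite directions in the lines. Of the genes named here and above by a bound, normexp with an offset of 50 called none of RTP4, GBP2 and TNFSF10 in A2780CBN or of AIM2 and LAMP3 in A2780CBNDXL; with an offset of 1 it called all but TNFSF10.

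**Figure D5:**
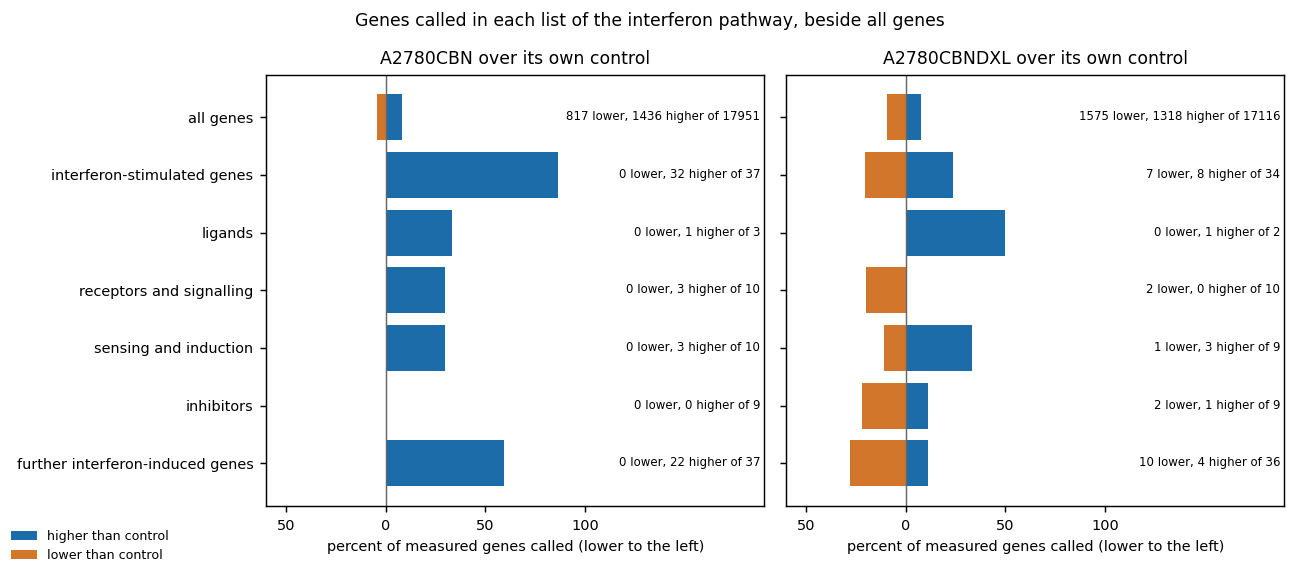
Percent of measured genes called higher (blue, to the right) or lower (orange, to the left) than the own control (x axis) in all genes and in each list (y axis), A2780CBN left and A2780CBNDXL right, with the counts beside each bar. Interferon-stimulated genes stand at 32 higher and 0 lower of 37 in A2780CBN, and at 8 higher and 7 lower of 34 in A2780CBNDXL.

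Of the 45 genes, 20 had several probes, and in 6 a further probe had a mean of the opposite sign in a line: BST2, EIF2AK2, EPSTI1, IRF7, MX2 and SP100. Among these BST2 was the 1 whose brightest probe was called, and its further probe was not measured.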

How the data were processed

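The authors pooled RNA of 3 isolations per line, labelled it with Cy3 and Cy5, hybridised it in both directions and scanned 8 arrays on 2 slides with Agilent Feature Extraction. The deposited files hold raw, background-subtracted and processed signal intensity per spot; per the file headers the processed intensity is background-subtracted and dye-normalised. The entries for the dyes of the reverse arrays equal those of the forward arrays, against the word reverse and the methods; they were taken as reversed. Between the labelling directions, red over green ratios had correlations of -0.74 to -0.58 within a line over all probes, and line over control ratios 0.58 to 0.74.

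Log2 ratios of processed signals, without control and outlier spots, were averaged over replicate spots, then per labelling direction, then across directions. A gene was represented by its brightest probe. Channels were scaled between arrays by Aquantile (limma 3.58.1 in R 4.3.3), and Python 3.11.15 did the rest. A gene was measured if the same channel was well above background on all 4 arrays. This filter was first read as either channel on each array, and the reading was changed after the number of genes measured had been seen (18154 genes in A2780CBN and 17247 in A2780CBNDXL by the first reading, with the same numbers of calls). On each array 59.8% to 67.5% of spots were well above background, and 0 were saturated. The rule for naming gave the values of each array for the 8 highest and 4 lowest called genes of each line, for opposite calls, and for STAT2, IRF9, IRF7 and IRF1; other lists show called genes among the 5 highest or lowest. A gene of the signalling list and a gene of the marker list are not reported here and are left out of the counts and sums of those lists. The members and lists were chosen with earlier results of these data known. The alternatives were other background corrections, dim filters, fold limits, probe rules, scalings, arrays and slides, and an ANOVA with line, dye and slide whose error is that between arrays. The comparison of the channels of the 2 lines over all genes and normexp with an offset of 1 were added after the values had been seen. The rules were tested on simulated data.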

Additional observations from a re-analysis of the deposited data

Results flagged for a closer look

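In 14 genes the lines had opposite calls. By the rule for a call, every A2780CBN array then lies on the opposite side of its control from every A2780CBNDXL array. Opposite calls were not counted over all genes. The difference between the lines was not tested, since each line is 1 sample, and the values against the other line's control are set beside it. IRF1 differed by 4.67 between the lines on the log2 scale, and stood at 2.02 and -0.96 against the other control in A2780CBN and A2780CBNDXL. In the same order, IFIT1 differed by 4.19, with 0.26 and -0.69 against the other control. IFIT2 differed by 5.55, with 1.20 and -0.91. IFIT3 differed by 5.26, with 1.91 and -0.60. IFIT5 differed by 2.89, with 0.31 and -0.83. GBP1 differed by 5.57, with 2.79 and -0.63. These 6 are interferon-stimulated genes of the set, and they kept both calls with normexp at an offset of 50 and of 1.

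The other 8 came from the pathway lists. TLR3 differed by 5.98, with 2.53 and -1.18 against the other control. IL28RA differed by 3.81, with 1.09 and -1.36. For both genes the A2780CBNDXL value against the other control leaned on array 1, whose spike-in controls varied most: the 4 arrays gave -3.04, -0.44, -0.43 and -0.80 for TLR3 (SD 1.26), and -2.79, -1.14, -0.44 and -1.07 for IL28RA (SD 1.01). The A2780CBN values against the other control leaned on array pair 1 as well. They were 3.70, 1.93, 2.26 and 2.25 for TLR3 (SD 0.79), and 2.28, 0.67, 0.83 and 0.61 for IL28RA (SD 0.79). For IL28RA the pairs other than pair 1 all lay below the limit. DDX60, a helicase, differed by 4.06, with 1.25 and 0.22. APOL6, an apolipoprotein L, differed by 4.69, with 2.31 and -1.22. LAMP3, a lysosomal membrane protein, differed by 6.72 in measured means, which is no size, since A2780CBNDXL was well above background on 0 of 4 arrays and the A2780CBN control on 2; against the other control A2780CBN was at 1.78 and A2780CBNDXL was not measured. PARP14, a mono-ADP-ribosyltransferase, differed by 3.85, with 1.41 and 0.41. PSMB9 differed by 5.49, with 1.78 and -0.21. TAP1 differed by 6.35, with 2.08 and -0.85. In each of the 14 the A2780CBN ratio was the higher. Under normexp (offset 50) 6 of the 14 lost a call: IL28RA and LAMP3 in both lines, and TLR3, DDX60, APOL6 and PARP14 in A2780CBNDXL. At an offset of 1 PARP14 alone lost one, in A2780CBNDXL.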

How the results depend on the processing

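A call needs the same sign on every array, so its sign could change only where the signals, probes or scaling were others; no called interferon-stimulated gene changed its sign there. Counts of genes higher in A2780CBN stayed within 1.5 times of 32. The median of the genes in A2780CBN was 0.97 with normexp at an offset of 50, 1.30 at an offset of 1, 1.92 with the mean over probes, 2.30 on slide 2 alone and 2.15 to 2.31 leaving out each array. Against the other control it was 1.43 on slide 1 alone and 1.18 to 1.40 leaving out each pair. In A2780CBNDXL normexp gave 3 genes higher and a median of 0.026 at an offset of 50, and a median of 0.066 at an offset of 1. Leaving out each array, that median ran from 0.16 without array 4 to 0.31 without array 2, where it was 0.27 with all arrays. Against the other control, genes lower in A2780CBNDXL numbered 1 at the 75th percentile scaling, 6 at a 1.5-fold limit, 1 with the mean over probes, 1 on slide 2 alone and 0 to 1 leaving out each pair, and the median was 0.63 with the mean over probes. The controls had 20 genes higher at a 1.5-fold limit. Over all genes normexp at an offset of 50 gave 424 higher and 180 lower in A2780CBN, where the processed signals gave 1436 and 817, and 488 and 684 in A2780CBNDXL, where they gave 1318 and 1575. The ANOVA of line, dye and slide called 32 genes higher in A2780CBN, and 8 higher and 7 lower in A2780CBNDXL. The cause of these shifts was not tested. Among the values of single called genes and the counts of the other lists, 1082 stayed within their SD, or within 1.5 times for a count, under an alternative and 121 did not. For OAS1, OAS2, RSAD2, TRIM22 and IFI16 the A2780CBN control passed background on at most 1 of 4 arrays. These genes lay between 0.22 and 0.47 in A2780CBN with normexp at an offset of 50, and between 0.84 and 1.34 at an offset of 1. Whether nearness to background sets these values was not tested.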
